A study of Caenorhabditis elegans with 9 samples.

Results

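The genes described here are 8 Rab GTPase genes of Caenorhabditis elegans (rab-1, rab-5, rab-7, rab-8, rab-10, rab-11.1, rab-35 and glo-1) and unc-16, which encodes the worm orthologue of the mammalian adaptor JIP3. They were taken by their public names in the annotation of genome build WBcel235, from a table of 28749 genes. The choice was made by name, but with earlier results of these data known. All 9 passed the filter on low values. Poly(A) RNA of whole worms was sequenced in 3 groups of 3 libraries. WLZ1 carries the integrated transgene wlzIs1, in which the promoter of the synaptobrevin gene snb-1 drives wild-type human LRRK2 and lin15(+) serves as the marker. WLZ3 carries wlzIs3, a transgene of the same design with the G2019S form of LRRK2. N2 is the wild-type Bristol strain. All worms grew at 20 °C on Escherichia coli OP50. Stage, age and sex of the worms were not stated in the labels. The snb-1 promoter is active across the nervous system, whereas the RNA came from all tissues. Each form of LRRK2 was present as 1 integrated transgene, so the form and the insertion cannot be told apart. No label places replicate libraries in separate cultures, and the p-values therefore cover the spread of these libraries alone, which may be technical.

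Rab GTPases are small membrane switches that are active with GTP bound and inactive with GDP bound. Each marks a compartment and recruits effectors that move, tether or fuse vesicles there. LRRK2 is a kinase that phosphorylates a subset of Rab proteins in mammalian cells, among them Rab8, Rab10 and Rab35, and the phosphorylated Rabs bind other effectors, including JIP3 and JIP4. G2019S, a cause of Parkinson's disease, raises the kinase activity. These are events on proteins, and the data addressed the RNA of the Rab genes, in FPKM, reads of a gene scaled by its length and by the library's depth.

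The libraries held 38128731 to 53336533 reads, as recovered from the values. The lowest of the 9 genes, glo-1, had 203 to 300 reads in a library, for a counting error of 8.16% to 9.93% with 2 reads taken as 1 fragment. The other 8 had 2155 to 43389 reads, for a counting error of 0.679% to 3.05%. The marker gene lin-15B stood at 82.8 ± 5.53 FPKM in WLZ1, 40.8 ± 2.64 in WLZ3 and 17.5 ± 0.624 in N2 (mean ± SD, n = 3, as for every mean below). The marker gene lin-15A stood at 74.5 ± 3.64 FPKM in WLZ1, 22.7 ± 0.387 in WLZ3 and 16.8 ± 0.77 in N2. Differences are of log2(FPKM + 1), tested with limma over 14862 genes with Benjamini-Hochberg adjustment, with calls made where the adjusted p was under 0.05. The median of this difference over all genes tested was -0.13 for WLZ1 minus N2, -0.02 for WLZ3 minus N2 and 0.10 for WLZ3 minus WLZ1. With median-of-ratios scaling of the libraries these medians were 0.03, 0.03 and -0.02. After quantile normalization they were 0.07, 0.03 and -0.02. The share of called genes that were higher moved with them, for WLZ1 against N2 39.3% as deposited, 53.6% after the first rescaling and 56.5% after the second. For WLZ3 against N2 it was 36.9%, 49.8% and 51.3%, and for WLZ3 against WLZ1 70.2%, 45.9% and 47.9%.

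In WLZ1, rab-8 and rab-10, of polarised secretion and basolateral recycling, were higher than in N2, and glo-1 and unc-16 were lower. The rises of rab-8 and rab-10 were called in all 17 alternatives, whereas the calls of glo-1 and unc-16 depended on how the libraries were scaled. Called genes made up 67.6% of all genes tested in this comparison, so 4 of 9 genes called was below the background. Higher genes were 26.6% of all tested and lower genes 41.1%. In WLZ3, none of the 9 genes was called against N2, with 36.0% of all genes called, 13.3% higher and 22.7% lower. Between the strains, rab-8 was lower in WLZ3 than in WLZ1.

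The order of the mean levels was the same in WLZ1, WLZ3 and N2. rab-11.1 was highest, followed by rab-10, rab-1, rab-5, rab-7, rab-8, rab-35, unc-16 and glo-1. Since FPKM is per length, these levels can be set side by side between genes. In each group the libraries of neighbours in this order did not overlap, except for rab-7 and rab-8 in WLZ1, which did. The mean of rab-7 over that of rab-8 was 1.12 in WLZ1, 1.39 in WLZ3 and 1.55 in N2. Among all genes tested, rab-11.1 stood at the 98.7th to 98.9th percentile of its library and glo-1 at the 37.9th to 44.6th.

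**Figure D1:**
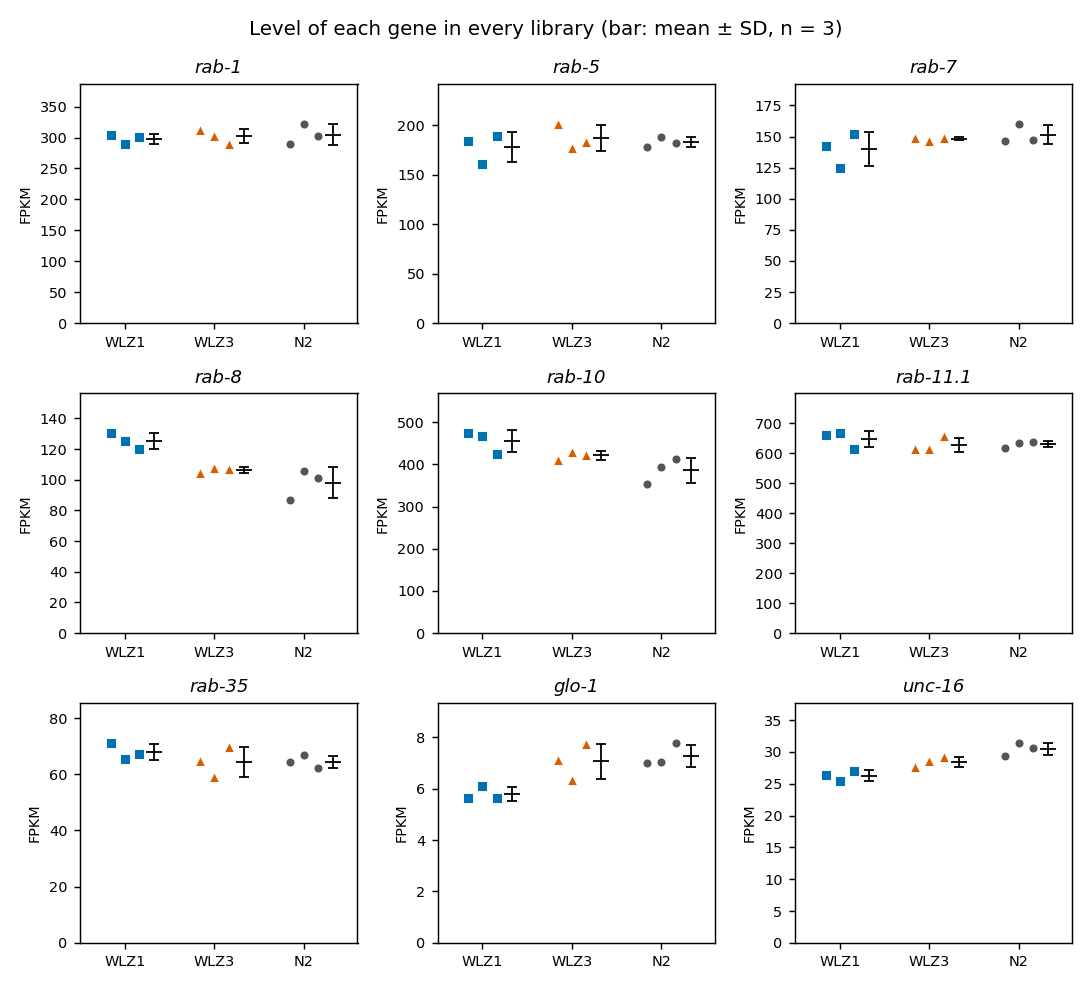
Level of each of the 9 genes in every library. The vertical axis is FPKM from 0, with its own range in each panel; points are libraries of WLZ1, WLZ3 and N2, and bars are the mean with SD (n = 3). rab-8 and rab-10 lie higher in all WLZ1 libraries than in any N2 library, and glo-1 and unc-16 lie lower.

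rab-8 (chromosome I 3682890 to 3684086, minus strand, WBcel235) encodes the Rab of polarised vesicle transport from the Golgi and recycling endosomes to the cell surface. It had 130.2, 125 and 119.7 FPKM in WLZ1 libraries, against 86.8, 106 and 101.4 in N2 libraries. Every WLZ1 library was above every N2 library, and N2 replicate 1 was the lowest of all. The means were 125 ± 5.25 FPKM in WLZ1 and 98.0 ± 9.97 in N2, a 1.28-fold difference (log2 difference 0.35, SE 0.07, 95% interval 0.20 to 0.51, adjusted p = 0.00169 in limma). Over the 17 alternatives the log2 difference ran from 0.27 to 0.55. Without N2 replicate 1 it was 0.27.

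rab-8 had 104.4, 107.7 and 106.7 FPKM in WLZ3 libraries, all below the lowest WLZ1 library. The WLZ3 mean of 106 ± 1.66 FPKM was 15.03% below that of WLZ1 (log2 difference -0.23, SE 0.07, 95% interval -0.39 to -0.07, adjusted p = 0.0257 in limma). This was the only call between the strains among the 9 genes, with 42.1% of all genes called, 29.6% higher and 12.6% lower. With each library left out the log2 difference stayed at -0.26 to -0.20, but the call was lost in 5 cases. The adjusted p was 0.0845 without WLZ1 replicate 1, 0.0631 without WLZ1 replicate 2, and 0.0683, 0.0505 and 0.0646 without WLZ3 replicates 1, 2 and 3. Against N2, WLZ3 overlapped the N2 range, with a log2 difference of 0.12 (95% interval -0.04 to 0.28, adjusted p = 0.197).

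rab-10 (I 6457282 to 6458479, minus strand), which acts in basolateral recycling in the worm intestine and in membrane traffic of neurons, had 473, 467 and 424 FPKM in WLZ1 libraries. In N2 libraries it had 354, 393 and 412 FPKM, all below the lowest WLZ1 library. The means were 455 ± 26.8 FPKM in WLZ1 and 386 ± 29.8 in N2, a 1.18-fold difference (log2 difference 0.24, SE 0.07, 95% interval 0.09 to 0.39, adjusted p = 0.0103 in limma). The alternatives gave 0.17 to 0.43. The gap between the highest N2 library and the lowest WLZ1 library was smaller than the SD of either group.

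In WLZ3 libraries rab-10 had 411, 430.1 and 423 FPKM, a mean of 421 ± 9.80, between those of WLZ1 and N2. WLZ3 overlapped both other groups by its lowest and highest libraries. The log2 difference was 0.13 against N2 (95% interval -0.02 to 0.28, adjusted p = 0.155) and -0.11 against WLZ1 (95% interval -0.26 to 0.04, adjusted p = 0.205). With median-of-ratios scaling, rab-10 was also called lower in WLZ3 than in WLZ1, together with rab-8, rab-11.1 and rab-35.

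rab-35 (III 11306647 to 11311566, minus strand) returns receptors, among them the yolk receptor of oocytes, from endosomes to the plasma membrane. It had 71.1, 65.4 and 67.3 FPKM in WLZ1, 64.7, 58.9 and 69.6 in WLZ3, and 64.2, 66.7 and 62.2 in N2. The 3 groups overlapped, and WLZ3 replicate 2 was the lowest library. The log2 difference was 0.08 in WLZ1 against N2 (95% interval -0.07 to 0.22, adjusted p = 0.313) and -0.0017 in WLZ3 against N2 (95% interval -0.15 to 0.14, adjusted p = 0.986).

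rab-11.1 (I 108682 to 110057, minus strand), the Rab of recycling endosomes and of cortical traffic in the early embryo, was the highest of the 9 genes. It had 660.3, 667 and 616 FPKM in WLZ1, 616, 614 and 656 in WLZ3, and 619, 635 and 637 in N2. N2 lay within the range of WLZ1. The log2 difference against N2 was 0.04 in WLZ1 (95% interval -0.07 to 0.15, adjusted p = 0.507), and -0.0034 in WLZ3 (95% interval -0.12 to 0.11, adjusted p = 0.962).

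rab-1 (V 1262629 to 1263989, minus strand) controls transport from the endoplasmic reticulum to the Golgi. Its 3 groups overlapped, with 305, 289 and 300.1 FPKM in WLZ1, 312, 303 and 290.3 in WLZ3, and 289.9, 323 and 302 in N2. The log2 difference against N2 was -0.03 in WLZ1 (95% interval -0.15 to 0.08) and -0.01 in WLZ3 (95% interval -0.13 to 0.10), with adjusted p = 0.593 and 0.857 in limma.

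rab-5 (I 9308442 to 9310221, plus strand) marks early endosomes, and rab-7 (II 11965523 to 11966931, minus strand) marks late endosomes and lysosomes. rab-5 had 184, 161 and 189 FPKM in WLZ1, 202, 177 and 183 in WLZ3, and 178, 188 and 182 in N2. rab-7 had 143, 125 and 152 FPKM in WLZ1, 149, 147 and 149 in WLZ3, and 147, 160.5 and 147 in N2. WLZ1 replicate 2 was the lowest library for both genes, and the groups overlapped. Against N2 the log2 difference of rab-5 was -0.04 in WLZ1 (95% interval -0.20 to 0.11) and 0.03 in WLZ3 (95% interval -0.13 to 0.19). That of rab-7 was -0.12 in WLZ1 (95% interval -0.28 to 0.04, adjusted p = 0.166 in limma) and -0.03 in WLZ3 (95% interval -0.19 to 0.13). Without WLZ1 replicate 3, the highest of its group, rab-7 was called lower in WLZ1 (-0.18, adjusted p = 0.0415). Of the rab-7 exon bases, 5.94% are shared with W03C9.5 on the same strand, so a part of its reads could belong to either gene.

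glo-1 (X 9872795 to 9882212, minus strand) encodes a Rab related to mammalian Rab32 and Rab38 that is needed to form gut granules, the lysosome-related organelles of the intestine. It had 5.65, 6.09 and 5.63 FPKM in WLZ1 libraries, 7.10, 6.35 and 7.73 in WLZ3 libraries, and 7.01, 7.02 and 7.77 in N2 libraries. All WLZ1 libraries were below all others, and WLZ3 overlapped N2. The means were 5.79 ± 0.258 FPKM in WLZ1 and 7.27 ± 0.434 in N2 (log2 difference -0.28, SE 0.09, 95% interval -0.48 to -0.08, adjusted p = 0.0175 in limma). The WLZ1 SD was below the counting error of its libraries.

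With each library left out, the log2 difference of glo-1 stayed at -0.31 to -0.24. The call was lost in 3 cases, with an adjusted p of 0.0517 without WLZ1 replicate 1, 0.0504 without WLZ1 replicate 3 and 0.0694 without N2 replicate 3. The scaling moved it further. With median-of-ratios scaling the log2 difference was -0.11 (adjusted p = 0.275), and with quantile normalization it was 0.30, a rise (adjusted p = 0.0156). glo-1 ranked at the 41.8th to 44.6th percentile of all tested genes in WLZ1 libraries and at the 37.9th to 40.0th in N2 libraries. Between the strains, glo-1 was 0.24 higher in WLZ3 than in WLZ1 on the log2 scale (95% interval 0.05 to 0.44, adjusted p = 0.0501). This difference was called with pseudocounts of 0.1 and 0.5 (adjusted p = 0.0442 and 0.0477) and without WLZ3 replicate 2 (0.0328), and with quantile normalization it turned to -0.10.

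unc-16 (III 9546258 to 9557450, plus strand, 17 annotated transcripts) encodes a scaffold that links kinesin-1 and dynein to cargo, binds the JNK kinase cascade and keeps organelles out of axons. It had 26.3, 25.4 and 27.03 FPKM in WLZ1 libraries, 27.6, 28.6 and 29.1 in WLZ3 libraries, and 29.4, 31.4 and 30.5 in N2 libraries. The 3 groups did not overlap, with WLZ1 lowest and N2 highest. The means were 26.3 ± 0.820 FPKM in WLZ1, 28.4 ± 0.772 in WLZ3 and 30.4 ± 0.971 in N2. WLZ1 was lower than N2 (log2 difference -0.21, SE 0.05, 95% interval -0.31 to -0.10, adjusted p = 0.00395 in limma).

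The WLZ1 call of unc-16 held with each library left out, with -0.23 to -0.18. Median-of-ratios scaling gave -0.02 (adjusted p = 0.756) and quantile normalization -0.10 (adjusted p = 0.0825), and neither was called. WLZ3 gave -0.09 against N2 (95% interval -0.20 to 0.01, adjusted p = 0.144) and 0.11 against WLZ1 (95% interval 0.0043 to 0.22, adjusted p = 0.0863). Of the unc-16 exon bases, 6.07% are shared with ZK1098.11 on the same strand.

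**Figure D2:**
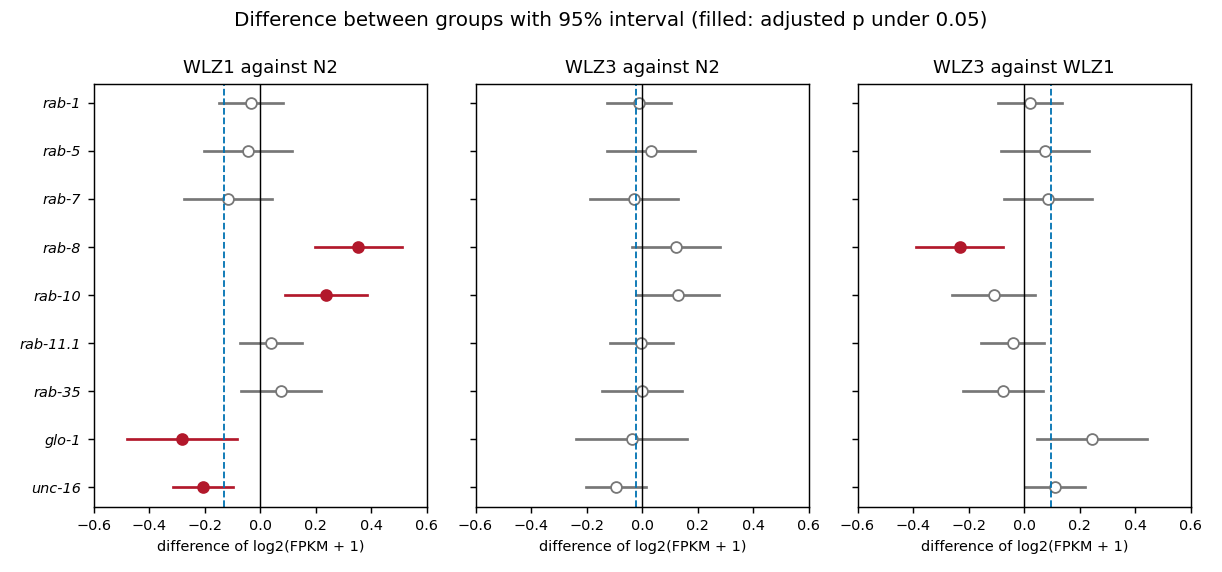
Difference of log2(FPKM + 1) for each of the 9 genes in WLZ1 against N2, WLZ3 against N2 and WLZ3 against WLZ1. Points are limma estimates with 95% intervals, filled where the adjusted p is under 0.05, and the dashed line is the median over all 14862 genes tested. In WLZ1 against N2, rab-8 (0.35) and rab-10 (0.24) lie right of 0 and glo-1 (-0.28) and unc-16 (-0.21) left of it; in WLZ3 against N2 no point is filled.

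For WLZ3 against N2, limma called 0 of the 9 genes, and 0 of 9 had an unadjusted p under 0.05. The 95% intervals of the 9 differences lay between -0.24 and 0.28 on the log2 scale. Changes in FPKM + 1 of up to 1.21-fold upward and to 0.849-fold downward were thus within them. In this comparison 5354 of all genes tested were called, and fewer without N2 replicate 2 (3013) or N2 replicate 3 (3204). The groups were apart for 1 of the 9 genes, unc-16, against 51.9% of all genes. In WLZ1 against N2 they were apart for 4 of 9 genes, against 70.8% of all genes. In WLZ3 against WLZ1 they were apart for 3 of 9 genes, rab-8, glo-1 and unc-16, against 55.7% of all genes.

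Relative to the median of all genes tested, the log2 difference in WLZ1 against N2 was 0.48 for rab-8 and 0.37 for rab-10, and -0.15 for glo-1 and -0.08 for unc-16. As deposited, the genes with no call lay at or above that median. The values were 0.01 for rab-7, 0.09 for rab-5, 0.10 for rab-1, 0.17 for rab-11.1 and 0.20 for rab-35. That median moved with filter and scaling. With the filter raised to a mean of 5 FPKM it was 0.02, and rab-7 (-0.14), rab-5 (-0.07) and rab-1 (-0.05) lay below it. rab-8 was then 0.33 above it, rab-10 0.21, rab-35 0.05 and rab-11.1 0.02. With quantile normalization rab-7, rab-5, rab-35 and rab-1 lay below (-0.22, -0.13, -0.07 and -0.06), and rab-8 was 0.22 above. With median-of-ratios scaling the 5 with no call as deposited lay above (0.04 to 0.23). With median-of-ratios scaling, 6 of the 9 genes were called higher in WLZ1 (rab-1, rab-5, rab-8, rab-10, rab-11.1 and rab-35) and no gene lower. With quantile normalization, 3 were called higher (rab-8, rab-10 and glo-1) and no gene lower. rab-8 and rab-10 thus rose in WLZ1 under all 3 scalings, and the fall of unc-16 was not called under either rescaling.

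**Figure D3:**
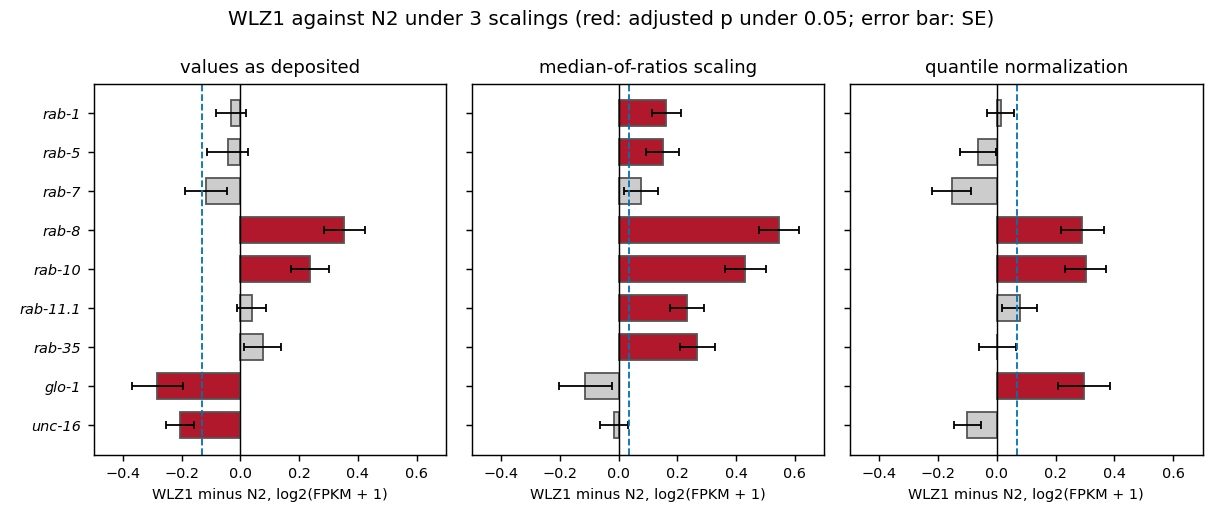
WLZ1 minus N2 for the 9 genes under 3 scalings, the deposited one, median-of-ratios and quantile. The horizontal axis is the difference of log2(FPKM + 1), error bars are the SE, red marks an adjusted p under 0.05 and the dashed line is the median of all genes tested. rab-8 and rab-10 are right of 0 in all 3 panels, while glo-1 is at -0.28 as deposited and at 0.30 with quantile normalization.

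Ratios of 2 genes within a library do not change with a factor common to the whole library. They were chosen after the values were seen and carry no test. A ratio also does not tell which of its 2 genes differed. With median-of-ratios scaling, rab-11.1 itself was called higher in WLZ1 than in N2 (log2 difference 0.23), and unc-16 was at -0.02. rab-8 over rab-11.1 was 0.193 in WLZ1, 0.169 in WLZ3 and 0.155 in N2, and WLZ1 lay apart from both other groups. rab-10 over rab-11.1 was 0.702 in WLZ1, 0.670 in WLZ3 and 0.613 in N2, with WLZ1 apart from N2. Relative to the other Rabs, rab-8 in WLZ1 was apart from N2 also over rab-1, rab-5, rab-7 and rab-35. rab-10 in WLZ1 was apart from N2 over rab-1, but overlapped N2 over rab-5 (2.25 to 2.91 in WLZ1, 1.98 to 2.26 in N2), rab-7 (2.79 to 3.75 in WLZ1, 2.41 to 2.80 in N2) and rab-35 (6.31 to 7.15 in WLZ1, 5.51 to 6.63 in N2).

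glo-1 over rab-11.1 was 0.00895 in WLZ1, 0.0112 in WLZ3 and 0.0115 in N2, with WLZ1 apart from both. unc-16 over rab-11.1 was 0.0406 in WLZ1, 0.0453 in WLZ3 and 0.0483 in N2, and all 3 groups were apart. Over rab-1, both genes in WLZ1 were again apart from N2. WLZ3 overlapped WLZ1 and N2 there, for glo-1 with 0.0185 to 0.0211 in WLZ1, 0.0209 to 0.0266 in WLZ3 and 0.0218 to 0.0257 in N2, and for unc-16 with 0.0864 to 0.0901 in WLZ1, 0.0884 to 0.1003 in WLZ3 and 0.0972 to 0.102 in N2. rab-8 over unc-16 was 4.94, 4.94 and 4.43 in WLZ1 libraries, 3.78, 3.76 and 3.67 in WLZ3 libraries, and 2.95, 3.38 and 3.32 in N2 libraries. rab-10 over unc-16 averaged 17.4 ± 1.45 in WLZ1, 14.8 ± 0.265 in WLZ3 and 12.7 ± 0.749 in N2, and these groups were also apart.

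The 8 Rab genes together held 0.254% ± 0.00716 of all FPKM in WLZ1, 0.239% ± 0.00325 in WLZ3 and 0.236% ± 0.00968 in N2. WLZ1 lay apart from WLZ3 and from N2. Of this Rab total, rab-8 made up 6.52% in WLZ1, 5.70% in WLZ3 and 5.36% in N2, and rab-10 made up 23.7%, 22.6% and 21.2%. The share of glo-1 was 0.302% in WLZ1, 0.378% in WLZ3 and 0.398% in N2.

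**Figure D4:**
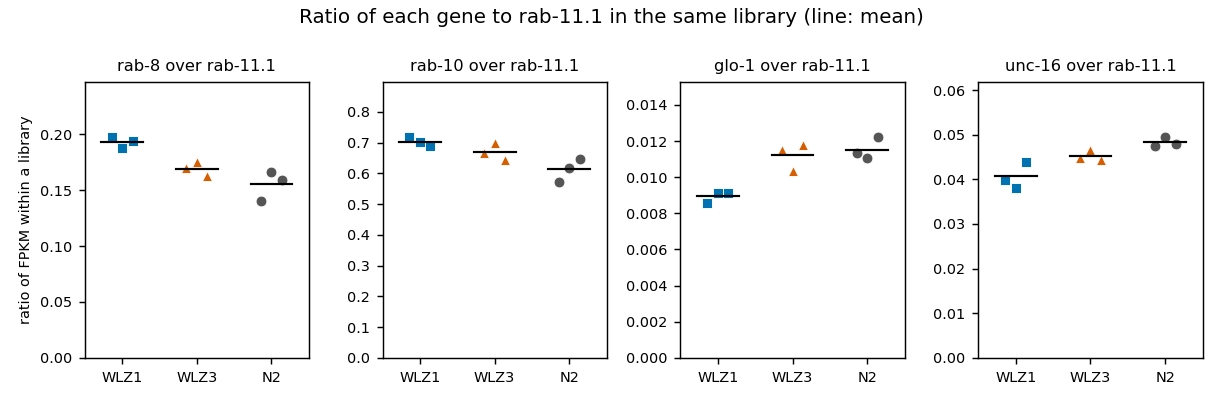
Ratio of the FPKM of rab-8, rab-10, glo-1 and unc-16 to that of rab-11.1 in the same library, for WLZ1, WLZ3 and N2. Points are libraries and lines are means; each vertical axis starts at 0. The means in WLZ1 and N2 are 0.193 and 0.155 for rab-8, 0.702 and 0.613 for rab-10, 0.00895 and 0.0115 for glo-1, and 0.0406 and 0.0483 for unc-16.

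Markers of tissues differed between the groups in the same libraries. Of all genes tested, 41.1% were called lower and 26.6% higher in WLZ1 against N2, and 22.7% and 13.3% in WLZ3 against N2. In WLZ1, 10 of 10 neuron markers were lower than in N2, and their summed level was 87.0 to 95.3 FPKM in WLZ1, 126 to 136 in WLZ3 and 179 to 218 in N2. All 10 germ line and early embryo markers were higher in WLZ1 than in N2, with a summed level of 2767 to 2892 FPKM in WLZ1, 2365 to 2493 in WLZ3 and 2041 to 2171 in N2. Of 9 intestine markers, 5 were lower and 1 higher in WLZ1, with a summed level of 1503 to 1785 FPKM in WLZ1, 1415 to 1654 in WLZ3 and 1911 to 2093 in N2. This balance in WLZ1 moved with scaling, to 2 lower and 1 higher with median-of-ratios and 3 and 1 with quantile normalization. The median log2 difference of the intestine markers went from -0.31 to -0.13 and -0.02. The 10 body muscle markers were lower in WLZ1 (summed level 597 to 689 FPKM in WLZ1, 963 to 1268 in WLZ3 and 1168 to 1323 in N2), and so were 6 of 10 epidermis markers (291 to 315 FPKM in WLZ1, 492 to 896 in WLZ3 and 645 to 752 in N2). With median-of-ratios scaling 6 epidermis markers were lower and 2 higher in WLZ1, and with quantile normalization 6 and 1. The 7 sperm markers tested were higher in WLZ1, and all 10 summed to 154.5 to 198 FPKM in WLZ1, 15.03 to 114.8 in WLZ3 and 2.46 to 14.3 in N2. In WLZ3 against N2, 8 of the 10 neuron markers, 6 of the 10 body muscle markers and 2 of the 9 intestine markers were lower, and 6 of the 10 germ line markers and 3 of the 7 sperm markers were higher. Of the epidermis markers, 5 were lower and 1 higher. No marker was at 0 in all libraries of a group. Fewer cells of a type and less RNA per cell cannot be told apart in whole worms, and the part of these markers in the differences of the 9 genes was not tested.

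Of 14 other Rab genes tested, 7 were lower and 1 higher in WLZ1 than in N2, 57.1% called, against 67.6% of all genes, of which 41.1% were lower and 26.6% higher (median log2 difference -0.14, against -0.13 for all genes), and 5 were lower and 1 higher in WLZ3, 42.9% called, against 36.0% (median -0.10, against -0.02). The median for WLZ1 turned to 0.06 with median-of-ratios scaling. rab-3, the Rab of synaptic vesicles, had 7.08 ± 0.612 FPKM in WLZ1, 13.99 ± 2.14 in WLZ3 and 26.9 ± 6.85 in N2, and was lower in both strains (log2 difference -1.76 and -0.87, adjusted p = 4.15e-05 and 0.00769 in limma). aex-6, the worm Rab27, had 4.85 ± 0.193 FPKM in WLZ1, 7.08 ± 0.692 in WLZ3 and 11.6 ± 2.37 in N2. rab-28, a Rab of ciliated neurons, had 0.943 ± 0.120 FPKM in WLZ1, 2.39 ± 0.147 in WLZ3 and 4.46 ± 0.290 in N2. The calls of these 3 genes held in both strains with each library left out, and none of the 9 genes moved as far.

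Genes listed as switching Rabs on and off were called in both directions. A list of 18 tested genes held guanine nucleotide exchange factors and related proteins, with mon-2 and smgl-1 among the latter. All 18 are called exchange factors below. In WLZ1 4 were higher than in N2 (sand-1, ccz-1, mon-2 and smgl-1) and 3 lower (median log2 difference 0.12, against -0.13 for all genes). This was 38.9% called, against 67.6% of all genes. In WLZ3 3 were higher and 1 lower than in N2, 22.2% called, against 36.0% of all genes (median 0.05, against -0.02). sand-1 and ccz-1, which form the exchange factor of RAB-7, were both higher in WLZ1, sand-1 with 80.2 ± 0.489 FPKM in WLZ1, 70.4 ± 1.37 in WLZ3 and 64.5 ± 0.720 in N2 (WLZ1 against N2 log2 difference 0.31, adjusted p = 5.99e-05 in limma). ccz-1 had 58.7 ± 1.251 FPKM in WLZ1, 53.4 ± 0.238 in WLZ3 and 48.3 ± 2.197 in N2 (0.28, adjusted p = 0.000406). aex-3, the exchange factor of RAB-3 and AEX-6, was lower in both strains, with 1.79 ± 0.105 FPKM in WLZ1, 3.35 ± 0.132 in WLZ3 and 6.04 ± 0.471 in N2.

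Of 20 genes listed as Rab GTPase-activating proteins, named tbc or rbg, 9 were lower and 4 higher in WLZ1 than in N2. This was 65% called, against 67.6% of all genes, with 41.1% of all genes lower and 26.6% higher. In WLZ3 7 were lower and 3 higher, 50% called, against 36.0% of all genes, with 22.7% lower and 13.3% higher. The median log2 difference was -0.14 in WLZ1 and -0.18 in WLZ3, against -0.13 and -0.02 for all genes. The WLZ1 median turned to 0.04 under median-of-ratios scaling and to 0.0032 under quantile normalization. tbc-7 had 4.73 ± 0.438 FPKM in WLZ1, 9.02 ± 0.647 in WLZ3 and 14.9 ± 2.33 in N2, and tbc-6 had 10.8 ± 1.38 FPKM in WLZ1, 10.02 ± 0.471 in WLZ3 and 15.03 ± 1.83 in N2. Both were called lower in both strains (adjusted p = 1.09e-05 and 0.0042 for tbc-7, 0.00584 and 0.00713 for tbc-6). Of the 4 genes for Rab prenylation and escort, 1 was called in WLZ1, 25% against 67.6% of all genes. This was M57.2, called higher (57.8 ± 2.47 FPKM, against 50.3 ± 4.33 in N2, adjusted p = 0.0193 in limma). That call was lost without WLZ1 replicate 1, WLZ1 replicate 2 or N2 replicate 2 (adjusted p = 0.0568, 0.0590 and 0.0600). In WLZ3 limma called 0 of the 4, against 36.0% of all genes, and 1 of the 4 had an unadjusted p under 0.05. The median was 0.04 in WLZ1 and -0.07 in WLZ3.

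Of 22 endosome tethers and effectors of RAB-5 and RAB-7 tested, 12 were higher and 1 lower in WLZ1 than in N2, 59.1% called, against 67.6% of all genes, of which 26.6% were higher (median log2 difference 0.17, against -0.13 for all genes). In WLZ3 6 were called, all higher, 27.3%, against 36.0% of all genes (median 0.10). vps-29, a retromer subunit, had 92.9 ± 3.22 FPKM in WLZ1, 82.6 ± 0.440 in WLZ3 and 75.8 ± 1.08 in N2 (WLZ1 against N2 0.29, adjusted p = 0.000158 in limma). vps-33.2, a Sec1-related endosome fusion protein, had 56.3 ± 1.57 FPKM in WLZ1, 52.8 ± 1.00 in WLZ3 and 46.3 ± 2.18 in N2. The WLZ3 call of vps-33.2 (adjusted p = 0.0142) was lost without N2 replicate 2 (0.0551) or N2 replicate 3 (0.0535). The gene that was lower in WLZ1 was vps-45, whose product pairs with syntaxins of endosomes, with 9.41 ± 0.190 FPKM in WLZ1, 11.17 ± 0.611 in WLZ3 and 12.6 ± 0.464 in N2. Its difference in WLZ1 (-0.39, adjusted p = 0.000608) turned to 0.08 with quantile normalization. rab-5 and rab-7 themselves were not called in either strain.

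The 19 tested genes listed as recycling effectors of RAB-8, RAB-10, RAB-11.1 and RAB-35 included the autophagy gene lgg-1. It was called lower in both strains (log2 difference -0.44 in WLZ1 and -0.19 in WLZ3). Of the 19, 8 were higher and 6 lower in WLZ1 than in N2. This was 73.7% called, against 67.6% of all genes, with 26.6% of all genes higher and 41.1% lower. In WLZ3 2 were higher and 5 lower as deposited, 36.8% called, against 36.0% of all genes. There, 6 were higher and 2 lower with median-of-ratios scaling, and 3 and 3 with quantile normalization. The median log2 difference was 0.07 in WLZ1 and 0.04 in WLZ3, against -0.13 and -0.02 for all genes. rfip-1, a RAB-11 family interacting protein, had 12.1 ± 0.774 FPKM in WLZ1, 19.4 ± 0.532 in WLZ3 and 24.9 ± 2.78 in N2. Its WLZ3 call (-0.34, adjusted p = 0.0141 in limma) was lost without N2 replicate 2 (0.0551) or N2 replicate 3 (0.0546). lin-10, which directs receptors to membranes in neurons and vulval cells, had 13.2 ± 1.23 FPKM in WLZ1, 17.6 ± 0.750 in WLZ3 and 22.5 ± 0.724 in N2. It was lower in both strains (-0.73 and -0.34, adjusted p = 3.09e-05 and 0.00825), opposite in sign to rab-8 and rab-10.

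Of 18 gut granule genes, the setting in which glo-1 acts, 8 were higher and 4 lower in WLZ1 (median log2 difference 0.15, against -0.13 for all genes). This was 66.7% called, against 67.6% of all genes, with 26.6% of all genes higher and 41.1% lower. In WLZ3 1 was called, higher, 5.56% against 36.0% of all genes (median 0.03, against -0.02). Under median-of-ratios scaling 6 were called in WLZ3, and 3 under quantile normalization, all higher. mrp-4, an ABC transporter of gut granules, was higher in WLZ1, with 61.8 ± 0.938 FPKM, against 47.2 ± 1.97 in N2 (0.38, adjusted p = 9.24e-05 in limma). cdf-2, the zinc transporter of gut granules, was lower, with 3.01 ± 0.671 FPKM in WLZ1 and 6.39 ± 0.854 in N2 (-0.89, adjusted p = 0.000451). pgp-2, another granule transporter, had 7.65 ± 0.698 FPKM in WLZ1 and 10.1 ± 0.812 in N2 (-0.36, adjusted p = 0.00531), which turned to 0.16 with quantile normalization. aps-3, of the AP-3 adaptor, was the gene called in WLZ3 as deposited and was called in all 17 alternatives, with 56.7 to 58.8 FPKM in WLZ3 libraries, against 48.6 to 50.98 in N2 libraries (0.21, adjusted p = 0.00949).

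Of 19 transport partners of unc-16, 8 were lower and 2 higher in WLZ1 than in N2, and the counts were the same in WLZ3. This was 52.6% called in each strain, against 67.6% of all genes in WLZ1 and 36.0% in WLZ3. Lower genes were 41.1% of all genes in WLZ1 and 22.7% in WLZ3. The median was -0.06 in WLZ1 and -0.05 in WLZ3, against -0.13 and -0.02 for all genes. Both list medians turned with median-of-ratios scaling, to 0.13 and 0.01. unc-104, the kinesin-3 of synaptic vesicle precursors, had 2.14 ± 0.137 FPKM in WLZ1, 4.03 ± 0.297 in WLZ3 and 7.47 ± 0.857 in N2. jnk-1, the JNK kinase that UNC-16 scaffolds, had 1.02 ± 0.153 FPKM in WLZ1, 2.71 ± 0.108 in WLZ3 and 4.69 ± 0.854 in N2. mkk-4, a MAP kinase kinase of the DLK-1 pathway, had 7.53 ± 0.702 FPKM in WLZ1, 9.10 ± 0.201 in WLZ3 and 13.3 ± 1.28 in N2. All 3 were called lower in both strains, with log2 differences of -1.48 to -0.50, whereas unc-16 differed by -0.21 in WLZ1 and -0.09 in WLZ3. These 3 had the largest called changes of the list in WLZ3, and not all partners fell. In WLZ1 against N2, klc-1 was higher by 0.53, and unc-116, of kinesin-1, was not called (-0.06, adjusted p = 0.42 in limma).

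A list of 10 tested genes, called the LRRK2 pathway below, also held orthologues of other Parkinson's disease genes, among them gba-3, pdr-1 and catp-6. In WLZ1 3 were higher and 2 lower (gba-3 and lrk-1), 50% called, against 67.6% of all genes. In WLZ3 3 were higher, with pdr-1 and catp-6 among them, and 1 lower (gba-3), 40% called, against 36.0% of all genes. With each library left out, the WLZ3 calls of gba-3, pdr-1 and catp-6 were lost in 2, 3 and 6 cases. With quantile normalization gba-3 was not called in either strain. The median was 0.11 in WLZ1 and 0.07 in WLZ3, against -0.13 and -0.02 for all genes. lrk-1, the worm LRRK kinase, had 5.49 ± 0.256 FPKM in WLZ1, 6.89 ± 0.0354 in WLZ3 and 7.57 ± 0.468 in N2. This order of group means was shared with unc-16 and with other genes, among them glo-1, rab-7, rab-3 and jnk-1. The direction of lrk-1 in WLZ1 against N2 (-0.40) turned to 0.18 with quantile normalization. vps-35, the retromer subunit mutated in a familial form of Parkinson's disease, was higher in WLZ1, with 56.2 ± 0.998 FPKM, against 47.4 ± 2.47 in N2 (0.24, adjusted p = 0.00253 in limma).

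**Figure D5:**
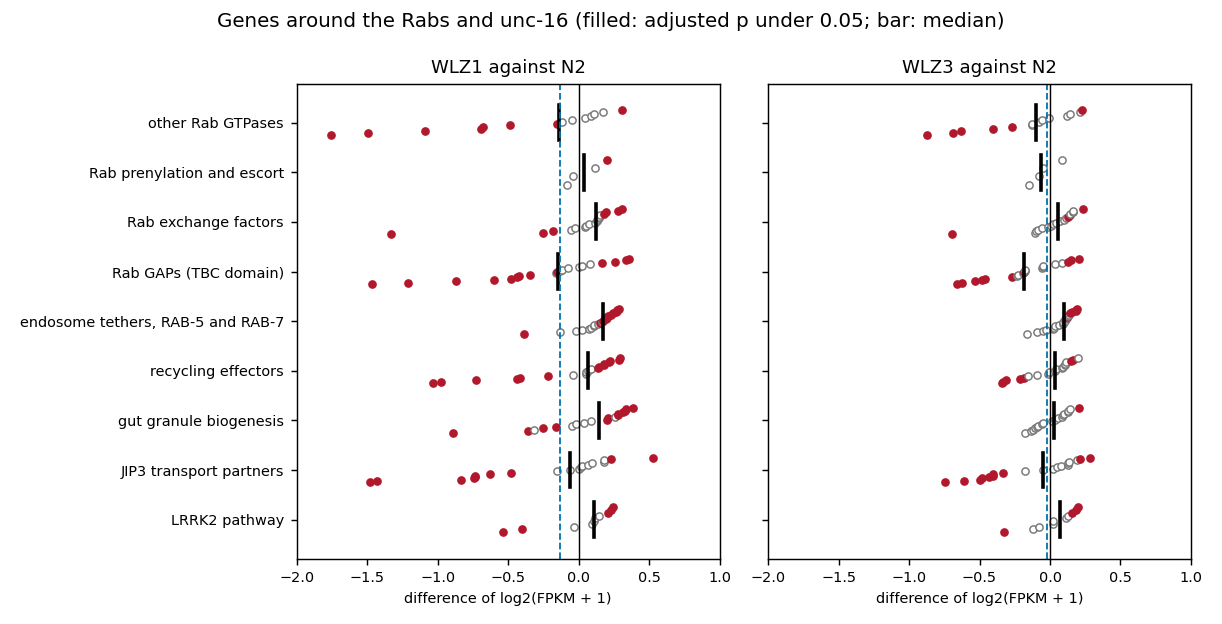
Difference of log2(FPKM + 1) for the genes of 9 lists around the Rabs and unc-16, in WLZ1 against N2 and WLZ3 against N2. Each point is a gene, filled where the adjusted p is under 0.05; bars are list medians and the dashed line is the median of all genes tested. The endosome tethers lie mostly right of 0 in WLZ1 (12 higher, 1 lower), and the other Rabs reach furthest left (rab-3 at -1.76).

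The balance of these lists in WLZ1 against N2 moved with scaling. Of all 14862 genes tested, 5841 were higher and 5064 lower with median-of-ratios scaling, and 5270 and 4061 with quantile normalization. Under median-of-ratios scaling, 5 of the other Rabs were higher and 6 lower, and 14 exchange factors higher and 1 lower. Of the GTPase-activating proteins 6 were higher and 6 lower, and of the endosome tethers 19 were higher and 1 lower. The recycling effectors had 12 higher and 5 lower, the gut granule genes 12 and 1, the partners of unc-16 9 and 8, and the LRRK2 pathway 8 and 2. Under quantile normalization the counts were 1 and 7 for the other Rabs and 12 and 2 for the exchange factors. They were 7 and 3 for the GTPase-activating proteins and 9 and 5 for the recycling effectors. The gut granule genes had 11 and 1, the partners of unc-16 5 and 6, and the LRRK2 pathway 5 and 1, and 17 endosome tethers were called, all higher.

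In WLZ3 against N2, 3007 of all 14862 genes tested were higher and 3034 lower with median-of-ratios scaling, and 2364 and 2245 with quantile normalization. The other Rabs had 3 higher and 5 lower with median-of-ratios scaling and 1 and 5 with quantile normalization. The exchange factors had 6 and 1 under both. The GTPase-activating proteins had 3 and 5 with median-of-ratios scaling and 2 and 2 with quantile normalization, and the partners of unc-16 had 5 and 8, then 4 and 7. The endosome tethers called, all higher, were 12 and 7, and the LRRK2 pathway had 5 and 1, then 2 and 1.

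In WLZ3 against WLZ1, 42.1% of all genes were called as deposited, 29.6% higher and 12.6% lower. Of 14862 genes tested, 3570 were higher and 4205 lower with median-of-ratios scaling, and 2544 and 2770 with quantile normalization. Of the 14 other Rabs, 5 were called as deposited, all higher, among them rab-3 (log2 difference 0.88, adjusted p = 0.00509 in limma). With median-of-ratios scaling 4 were higher and 2 lower, and with quantile normalization 3 were called, all higher. Of the partners of unc-16, 7 were higher and 1 lower as deposited, with jnk-1 at 0.88 (adjusted p = 0.00107). This balance turned to 4 higher and 6 lower with median-of-ratios scaling, and was 4 and 2 with quantile normalization.

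The balance of the recycling effectors between the strains also turned, with 5 higher and 1 lower as deposited, 3 and 10 with median-of-ratios scaling, and 3 and 1 with quantile normalization. The exchange factors had 1 higher and 3 lower as deposited, 1 and 8 with median-of-ratios scaling and 1 and 6 with quantile normalization. The GTPase-activating proteins had 4 and 3 as deposited, 3 and 6 with median-of-ratios scaling and 1 and 5 with quantile normalization. The gut granule genes had 2 and 6, then 1 and 10, then 2 and 8 in the same order of scalings. Of the endosome tethers 1 was higher and 2 lower as deposited, and 15 and 8 were called under the other scalings, all lower.

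Of the prenylation genes 1 was called between the strains as deposited, M57.2, lower (-0.25, adjusted p = 0.0126), and 3 were called with median-of-ratios scaling, all lower. Of the LRRK2 pathway 1 was called, lrk-1, higher (0.28, adjusted p = 0.0154), with 0.16 (adjusted p = 0.1001) under median-of-ratios scaling and -0.07 under quantile normalization. Under median-of-ratios scaling 6 genes of that pathway were called and under quantile normalization 3, all lower. Some genes stand in more than 1 list.

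The protein-coding genes with the profile most like each of the 9 were found by the root mean square difference of centred log2(FPKM + 1) over 9 libraries, among 9248 genes, as a description. The closest to rab-10 was intk-1, at 0.0192, with 27.1 FPKM in WLZ1, 24.7 in WLZ3 and 22.5 in N2, and ztf-20 came next. The closest to rab-8 was K03B4.1, at 0.0333, with 72.1 FPKM in WLZ1, 60.3 in WLZ3 and 56.7 in N2, and dsbn-1 came next. rab-8 itself varied by 0.165 around its mean on the same scale, and rab-10 by 0.119.

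The closest to unc-16 was tbc-10, a TBC-domain gene, at 0.0313, with 11.9 FPKM in WLZ1, 12.8 in WLZ3 and 13.4 in N2. The next was apm-3, of the AP-3 adaptor. The closest to glo-1 was alh-3, at 0.0401, followed by icap-1. rab-1 was closest to bca-2 and paqr-2, rab-5 to F45E12.5 and mtm-1, and rab-7 to glrx-10 and T22G5.3. rab-11.1 was closest to mac-1 and ccar-1, and rab-35 to W04B5.5 and nuaf-3.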

How the data were processed

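The authors deposited 1 table of FPKM values for 28749 genes in 9 libraries of poly(A) RNA from whole worms, 3 per group, and groups were taken from the labels. The submitters' processing notes list featureCounts 2.0.3, HISAT2 2.2.1, fastp 0.23.2 and build WBcel235. The step from counts to FPKM and any strand setting were not stated in those sources, so reads of overlapping genes may be shared. Libraries were sequenced on either of the instruments named in the labels' protocols, without a record per library in those labels.

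Names came from the RefSeq gene table, which matched 28744 genes, and exon lengths from Ensembl release 115, both for WBcel235. Reads were recovered as FPKM times length times depth, and 92.6% to 93.9% of values under 1000 reads were whole within 0.01. Even numbers made up 80.6% to 85.5% of counts from 2 to 20 reads, so 2 reads were taken as 1 fragment. Intervals from counts cover counting error only. limma 3.58.1 in R 4.3.3 with an intensity trend was fitted to log2(FPKM + 1) of all 9 libraries with 1 mean per group, two-sided, for the 14862 genes that reached 1 FPKM in 3 or more libraries. Differences of log2(FPKM + 1) understate changes of low genes. The fit was checked on simulated data. Summaries used Python 3.11.15 with pandas 2.3.3 and numpy 2.4.6, and figures matplotlib 3.10.9.

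The 9 genes, 9 pathway lists and 6 marker lists were chosen with earlier results of these data known. Of 216 listed genes, 10 were not matched to a row. Named genes were the 9, lrk-1 and the lin-15 marker genes, and from each list up to 3 called genes with the largest change against N2 in each strain and 1 between the strains, where the higher group averaged 2 FPKM or more. Where a list had no call, the gene with the smallest p was taken. The list genes mon-2, smgl-1, lgg-1, unc-116 and klc-1 were named in addition, outside the counts of values for named genes. For each of the 9, the 2 most alike genes were taken at a mean of at least 5 FPKM. The settings varied were the pseudocount (0.1 and 0.5), the filter (none, or a mean of at least 5 FPKM), the scaling (median-of-ratios or quantile), a replicate block, a fit of the groups compared only, and each library left out.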

Additional observations from a re-analysis of the deposited data

How the results depend on the processing

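Under 17 alternatives per comparison, the 5 calls among the 9 genes gave 85 values, of which 73 kept direction and call, 11 lost the call and 1 turned. The 22 differences with no call gave 374 values, of which 332 kept direction and stayed uncalled, 9 became called and 33 turned. Of 1056 values for 63 calls of other named genes, 978 kept direction and call. With median-of-ratios scaling, WLZ1 against N2 turned to 0.16 for rab-1, 0.15 for rab-5, 0.077 for rab-7 and 0.094 for snb-1. WLZ3 against N2 turned to 0.011 for glo-1, 0.053 for rab-11.1, 0.043 for rab-1, 0.054 for rab-35 and 0.025 for rab-7. WLZ3 against WLZ1 turned to -0.12 for rab-1, -0.063 for rab-5, -0.051 for rab-7 and -0.022 for unc-16, and 4 of the 9 genes were called. With quantile normalization, WLZ1 against N2 turned to 0.30 for glo-1, 0.18 for lrk-1, 0.16 for pgp-2, 0.013 for rab-1 and 0.080 for vps-45. WLZ3 against N2 turned to 0.20 for glo-1 and 0.0041 for rab-1, and WLZ3 against WLZ1 to -0.10 for glo-1, -0.067 for lrk-1, -0.0087 for rab-1 and -0.047 for vps-45. These settings rescale whole libraries, and the cause of the turns was not tested.

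Leaving out 1 library at a time, WLZ1 against N2 ran from -0.068 to 0.0092 for rab-1 and from -0.088 to 0.028 for rab-5. WLZ3 against N2 ran from -0.048 to 0.028 for rab-1, -0.024 to 0.070 for rab-5, -0.054 to 0.011 for rab-7, -0.035 to 0.013 for rab-11.1, -0.059 to 0.060 for rab-35 and -0.098 to 0.027 for glo-1. WLZ3 against WLZ1 ran from -0.0054 to 0.047 for rab-1. With each library left out, 8905 to 9913 genes were called in WLZ1 against N2, 3013 to 5597 in WLZ3 against N2 and 4369 to 6508 in WLZ3 against WLZ1. Of the 9 genes, 3 to 4, 0 and 0 to 1 were called. With a mean of at least 5 FPKM, fewer genes were tested, and 6469 were called in WLZ1 against N2 and 3782 in WLZ3 against WLZ1. With pseudocounts of 0.1 and 0.5, 2 of the 9 genes were called in WLZ3 against WLZ1. Replicate numbers are shared across the groups, but the labels give no pairing. Deviations of same-numbered libraries correlated at -0.145 to 0.244, over 0.1 in 2 of 9 pairs, so the numbers were not taken to pair the samples. A replicate block gave 9623 calls in WLZ1 against N2, 4410 in WLZ3 against N2 and 5429 in WLZ3 against WLZ1, and the calls among the 9 genes were those without it. Depth limits glo-1 most, at 203 to 300 reads a library.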
